A study of Homo sapiens with 2 samples.

Results

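In all, 10 matrix glycoprotein genes were followed between A549 cells that overexpressed miR-130b and A549 cells that carried an empty vector. They are SPARC, SPOCK1, TNC, THBS1, THBS2, FN1, HMCN1, FBN1, FBLN1 and VCAN, 10 of 18417 genes that the platform annotation named. A549 is an established human lung adenocarcinoma line. Both groups were precipitated with an antibody against Argonaute2 (Ago2), the protein through which microRNAs engage their target mRNAs, and the recovered RNA was hybridised to an Affymetrix array with 1 channel. Each group had 1 array, so no value has a replicate error and no test was run. No array of the RNA before precipitation and none of a control precipitate was analysed here, so the amount of an mRNA, its binding to Ago2 and RNA carried over without binding cannot be told apart. The genes were chosen by their matrix function and with their log2 differences between these 2 arrays in view, which makes every value on them a description. The labels do not give the vector, the time after transfection or the number of cultures.

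Matricellular proteins such as SPARC, tenascin C and the thrombospondins are secreted into the extracellular matrix, where they alter how cells attach to it rather than bearing load. Fibronectin, the fibrillins, the fibulins and hemicentin build or decorate fibres and basement membranes, and versican is a large proteoglycan that binds hyaluronan. In lung and in lung tumours these proteins are known mainly as products of stromal cells, and carcinoma cells that take on mesenchymal traits can make them too. A microRNA normally pairs through its seed, bases 2 to 8, with mRNAs that are then held by Ago2 and repressed.

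The 2 mature arms of the overexpressed microRNA, as RefSeq gives them on GRCh38.p14, are shown because the arms present different seeds (in capitals).
hsa-miR-130b-3p: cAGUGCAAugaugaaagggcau
hsa-miR-130b-5p: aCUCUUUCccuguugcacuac
The 3p arm is 22 bases long and the 5p arm 21. The seed of the 3p arm is also that of miR-301a-3p, miR-301b-3p, miR-454-3p, miR-3666 and miR-4295 in the same table. Sites for it in the 10 mRNAs were not searched, because transcript sequences were not used here. The probe set of the microRNA gene, MIR130B, read 6.66 on the empty-vector array and 12.64 on the miR-130b array (log2), so the arrays differ as labelled.

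Values are deposited log2 levels, and a difference is the level with miR-130b minus the level with the empty vector, so that a difference of 1 is 2-fold. Each probe set has its own sensitivity, so levels of different genes do not give their relative abundance. With miR-130b 5 of the 10 genes were higher by 2-fold or more, and 0 were lower by as much. Among all 18417 named genes, 1.06% were higher and 1.37% lower by that threshold. The median difference of the 10 genes was 0.92, against 0.053 for all named genes. A filter kept the 9209 genes whose mean over both arrays reached the median of all named genes, 8.64. Of these, 1.32% passed the threshold upwards and 1.6% downwards. Of the 10 genes 9 passed it, and SPARC and SPOCK1 did so only through the miR-130b array, which is why the counts above are over all 10. Every one of the 10 was read by 1 probe set, and no probe set shared between several genes carried one of them. In genes with more than 1 probe set the difference varied between probe sets with a pooled SD of 0.16 (356 genes). Of the 10 genes, 8 lay beyond 2 such SDs (0.33), as did 29.6% of the kept genes, and that SD leaves out variation between cultures and precipitations.

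**Figure D1:**
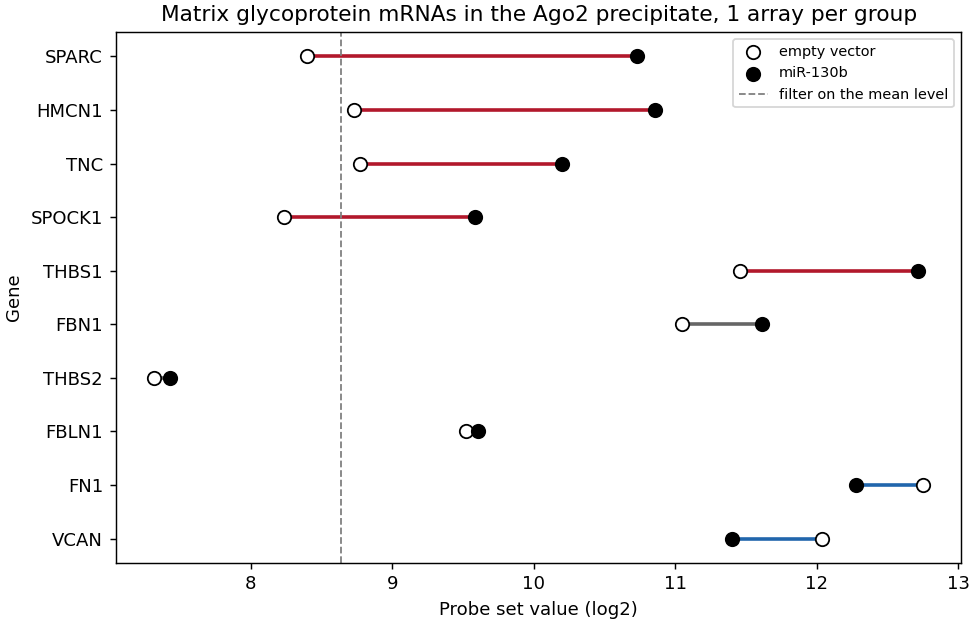
Log2 probe set value of each of the 10 genes (horizontal axis) on the empty-vector array (open circle) and the miR-130b array (filled circle), ordered by difference, with the filter on the mean level of both arrays at 8.64 (dashed line). Line colours mark at least 2-fold higher (red), above 0 and under 2-fold (grey) and below 0 (blue): 5 genes are red, and FN1 and VCAN are blue.

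SPARC, a collagen-binding glycoprotein that limits cell spreading, had the largest difference of the 10. Its value was 8.40 on the empty-vector array and 10.73 on the miR-130b array, which is 2.33 higher, or 5.04-fold. SPOCK1, which encodes testican, a proteoglycan of the SPARC family, read 8.23 and 9.58, a difference of 1.35 (2.55-fold). Both empty-vector values lay just above the highest of 341 olfactory receptor genes on that array, 8.16, which serve as a guide to probe sets without an expressed target. Background adds to such low signals, and how it was corrected is not known. The genes were also chosen with their differences in view, so these folds may be understated or overstated.

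Of 6 further genes of the SPARC family, 2 passed the filter. FSTL1, a secreted follistatin-like protein, was at 9.33 and 10.22, a difference of 0.90. SMOC1, a basement membrane protein with a SPARC-type calcium-binding domain, was at 11.98 and 11.40, a difference of -0.58. The other 4 (SPARCL1, SPOCK2, SMOC2 and SPOCK3) lay under the highest olfactory receptor gene on both arrays, where no statement on a change could be made.

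TNC encodes tenascin C, a hexameric anti-adhesive protein that appears in wounds and tumour stroma. Its value was 8.77 (empty vector) and 10.20 (miR-130b), a difference of 1.42 (2.68-fold, rank 29 of the kept genes). THBS1, thrombospondin 1, is a trimeric protein that inhibits angiogenesis and activates latent TGF-beta. It read 11.46 and 12.72, a difference of 1.26 (2.40-fold, rank 54). THBS1 was the 1 gene of the 5 higher ones that was already well above the filter with the empty vector. THBS2, its close paralogue, read 7.32 and 7.43, a difference of 0.11, and both values lay between the 95th percentile and the highest value of the olfactory receptor genes (7.08 and 8.16 on the empty-vector array, 7.17 and 8.21 on the miR-130b array). At that level no statement on a change in THBS2 could be made.

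Of 14 further genes on the list of tenascins and CCN proteins 9 passed the filter, 6 with a difference above 0 and 3 below. The median of these 9 was 0.23, against 0.010 for all kept genes. By 2-fold or more 0 of the 9 were higher or lower, against 1.32% higher and 1.6% lower among all kept genes. NID2, the basement membrane linker nidogen 2, differed by 0.96 and CCN5 by 0.38. CCN3, a regulator of cell growth and adhesion, differed by -0.88, and CCN1, an integrin ligand, by -0.20. TNN and TNR, the other tenascins read by probe sets of their own, were under the 95th percentile of the olfactory receptor genes on both arrays, so a change in them could not be read. TNXB had no probe set of its own and was not analysed here.

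Of 8 further genes on the list of thrombospondins and their receptors, 5 passed the filter, with a median of -0.29. Of these 5, 4 were below 0, and all 5 were after centring on the median of all genes. THBS3 differed by -0.56, CD47, a thrombospondin receptor, by -0.29, and CALR, the calreticulin that takes part in thrombospondin signalling at the cell surface, by -0.59. SCARB1, a scavenger receptor related to CD36, differed by 0.044.

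**Figure D2:**
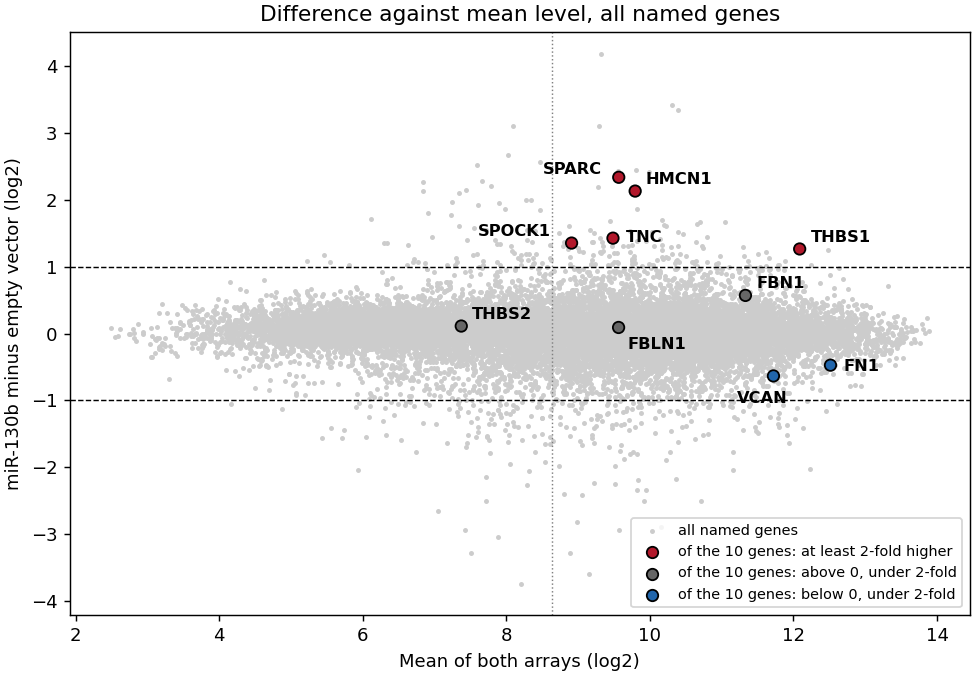
Difference of each named gene (vertical axis, log2, miR-130b minus empty vector) against its mean over both arrays (horizontal axis, log2), with the 10 genes in colour and lines at 2-fold (dashed) and at the filter (dotted). SPARC, HMCN1, TNC, SPOCK1 and THBS1 lie above the upper line; 1 gene, MIR130B, lies outside the vertical range.

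HMCN1 encodes hemicentin 1, a very large fibulin-related protein of basement membranes and cell junctions. Its value was 8.73 (empty vector) and 10.86 (miR-130b), a difference of 2.13 (4.37-fold, rank 11 of the kept genes). FBLN1, fibulin 1, which binds fibronectin and basement membrane proteins, read 9.52 and 9.61, a difference of 0.091, within 2 SDs between probe sets. EFEMP1 (fibulin 3), the 1 further family member that passed the filter, differed by 0.61. Below the filter, FBLN5 differed by 0.10 and FBLN2 by 0.37. FBLN7, HMCN2 and EFEMP2 lay under the highest olfactory receptor gene on both arrays, where no statement on a change could be made.

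FBN1, fibrillin 1, is the main subunit of the microfibrils that carry latent TGF-beta and elastin. It read 11.05 (empty vector) and 11.62 (miR-130b), a difference of 0.57 (1.48-fold). FBN1 had the largest positive difference among the genes under the 2-fold threshold, and THBS1, at 1.26, the smallest among those over it. FBN2, the paralogue found mainly in developing tissue, was at 12.06 and 11.59, a difference of -0.47. Of 18 further microfibril and elastic fibre genes 10 passed the filter, 6 above 0 and 4 below, with a median of 0.11. The latent TGF-beta binding proteins were unequal, with LTBP2 at 0.94, LTBP1 at 0.73, LTBP3 at 0.16 and LTBP4 at -0.20. LOX, the lysyl oxidase that cross-links collagen and elastin, was below the filter, with 8.79 on the empty-vector array and 7.41 on the miR-130b array, the latter under the highest olfactory receptor gene; it is named here after its value was seen.

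FN1 and VCAN were the 2 genes of the 10 with lower values under miR-130b. FN1, fibronectin, the fibre-forming ligand of integrins, read 12.75 (empty vector) and 12.28 (miR-130b), a difference of -0.47 (1.39-fold lower). VCAN, versican, read 12.04 and 11.40, a difference of -0.63 (1.55-fold lower). Both were beyond 2 SDs between probe sets and under the 2-fold threshold. By size of decrease VCAN stood at rank 455 and FN1 at rank 808 of the 9209 kept genes. Of 14 other proteoglycans and link proteins 4 passed the filter and went both ways, with a median of 0.058. AGRN, agrin, differed by -0.33, HSPG2, perlecan, by 0.052, HAPLN4, a link protein, by 0.064, and SDC1, syndecan 1, by 0.41. SDC4 was not analysed here.

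The upstream sequences of 5 of these genes are printed because they contrast 3 genes that were at least 2-fold higher (SPARC, TNC, THBS1) with both that were lower (FN1, VCAN). RefSeq gave a start for 8 of the 10 genes; it was not matched for SPOCK1 and HMCN1. Each run holds the 250 bases before the annotated start, 5′ to 3′ on the gene's strand in GRCh38.p14. Capitals mark matches, on either strand, to any of 8 motifs: TATAA (core of the TATA box), CCAAT (bound by NF-Y), GGGCGG (GC box), TGANTCA (AP-1), TGACGTCA (cyclic AMP response element), CATTCC (TEAD), CAGAC (SMAD) and GGAGGA (a repeat of GGA). SPARC lies at chr5:151686916-151687165 (minus strand), TNC at chr9:115118158-115118407 (minus strand), THBS1 at chr15:39580829-39581078 (plus strand), FN1 at chr2:215436069-215436318 (minus strand) and VCAN at chr5:83471494-83471743 (plus strand).
SPARC: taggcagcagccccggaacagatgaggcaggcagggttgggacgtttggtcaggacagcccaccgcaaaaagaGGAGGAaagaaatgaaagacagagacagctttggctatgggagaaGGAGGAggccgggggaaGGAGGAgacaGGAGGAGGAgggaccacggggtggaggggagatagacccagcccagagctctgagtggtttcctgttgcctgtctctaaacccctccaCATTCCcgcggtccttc
TNC: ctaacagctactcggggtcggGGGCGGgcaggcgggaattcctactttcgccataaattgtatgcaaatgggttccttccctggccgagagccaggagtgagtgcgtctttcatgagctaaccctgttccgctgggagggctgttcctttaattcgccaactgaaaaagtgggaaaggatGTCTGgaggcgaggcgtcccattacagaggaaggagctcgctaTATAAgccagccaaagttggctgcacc
THBS1: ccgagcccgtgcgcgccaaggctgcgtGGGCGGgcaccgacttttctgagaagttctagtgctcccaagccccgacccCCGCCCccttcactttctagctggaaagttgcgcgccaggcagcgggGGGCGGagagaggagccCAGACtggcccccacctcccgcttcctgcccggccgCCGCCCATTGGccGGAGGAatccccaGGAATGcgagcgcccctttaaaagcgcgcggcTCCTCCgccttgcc
FN1: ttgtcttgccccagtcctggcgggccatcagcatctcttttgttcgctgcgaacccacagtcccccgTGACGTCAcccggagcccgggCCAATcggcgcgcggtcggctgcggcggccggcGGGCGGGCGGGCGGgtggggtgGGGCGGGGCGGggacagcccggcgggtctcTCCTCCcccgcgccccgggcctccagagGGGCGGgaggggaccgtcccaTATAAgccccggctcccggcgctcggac
VCAN: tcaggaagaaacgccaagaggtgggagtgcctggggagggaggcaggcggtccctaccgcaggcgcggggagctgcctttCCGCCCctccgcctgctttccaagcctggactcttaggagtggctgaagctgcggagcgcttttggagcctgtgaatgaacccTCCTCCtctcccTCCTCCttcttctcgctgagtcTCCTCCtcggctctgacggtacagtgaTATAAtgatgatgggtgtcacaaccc
SPARC held GGAGGA at 5 overlapping or separate positions and no TATAA, whereas TNC held TATAA at -27 to -23 from the start and no GGAGGA. THBS1 held GGGCGG at 4 positions and FN1 at 6. FN1 was the 1 gene of the 8 with TGACGTCA, at -183 to -176, a motif found in 1.65% of all 35116 windows of this length. TATAA was in 4 of the 8 (TNC, THBS2, FN1 and VCAN) and in 18.9% of all windows. CATTCC was in 4 of the 8 (SPARC, THBS1, THBS2 and FBN1) against 11.9%, and GGAGGA in 6 against 31.8%. CAGAC was in 4 against 38.0%, GGGCGG in 5 against 42.6%, CCAAT in 2 against 32.0%, and TGANTCA in 0 against 6.57%. TATAA thus occurred in TNC, which was higher, and in both genes that were lower. None of the 8 motifs was in all 3 of SPARC, TNC and THBS1. SPOCK1 and HMCN1, which were also at least 2-fold higher, were not searched, so motifs shared by all higher genes could not be read. Some of these motifs overlap in the printed runs, and a match describes letters only.

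Receptors of these proteins were measured on the same arrays. Of 20 listed receptors 12 passed the filter, 6 above 0 and 6 below, with a median of -0.0070, and 2 were higher and 0 lower by 2-fold or more, against 1.32% and 1.6% of all kept genes. ITGB8, one of these, passed the filter only through the miR-130b array. Both are integrin beta chains that pair with the alpha v chain. ITGB3, whose pair binds fibronectin, thrombospondin and osteopontin, was at 9.75 (empty vector) and 11.05 (miR-130b), a difference of 1.30. ITGB8, whose pair binds latent TGF-beta, was at 8.13 and 9.44; since the former lay under the highest olfactory receptor gene, no exact fold is given. The alpha v chain itself, ITGAV, differed by -0.024, the alpha 5 chain of the main fibronectin receptor, ITGA5, by 0.010, and the shared ITGB1 by -0.040. The hyaluronan receptor CD44 differed by 0.15, ITGA3 by -0.38 and EGFR by -0.32. ITGA4, below the filter and named after its value was seen, read 7.33 and 8.40, the former also under that level.

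Genes that TGF-beta is known to induce, matrix genes and others, were also listed. This list was drawn up without any of the 10 genes, so it does not say whether TGF-beta induces them. Of 16 measured 13 passed the filter, 11 above 0 and 2 below, with a median of 0.32, against a median of 0.010 and 51.5% above 0 for all kept genes. Under the other scalings between 10 and 12 of the 13 were above 0. Of the 13, 0 differed by 2-fold or more, against 1.32% higher and 1.6% lower among all kept genes. COL5A1, a fibril-initiating collagen chain, differed by 0.95, COL5A2 by 0.60, SKIL, a SMAD co-repressor, by 0.55 and SMAD7, an inhibitor of the pathway, by 0.47. TGFBI differed by -0.088 and TPM1 by -0.0060. The list shares LTBP2 and LOXL2 with that of microfibril genes, and CCN2 and TGFBI with that of CCN proteins.

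**Figure D3:**
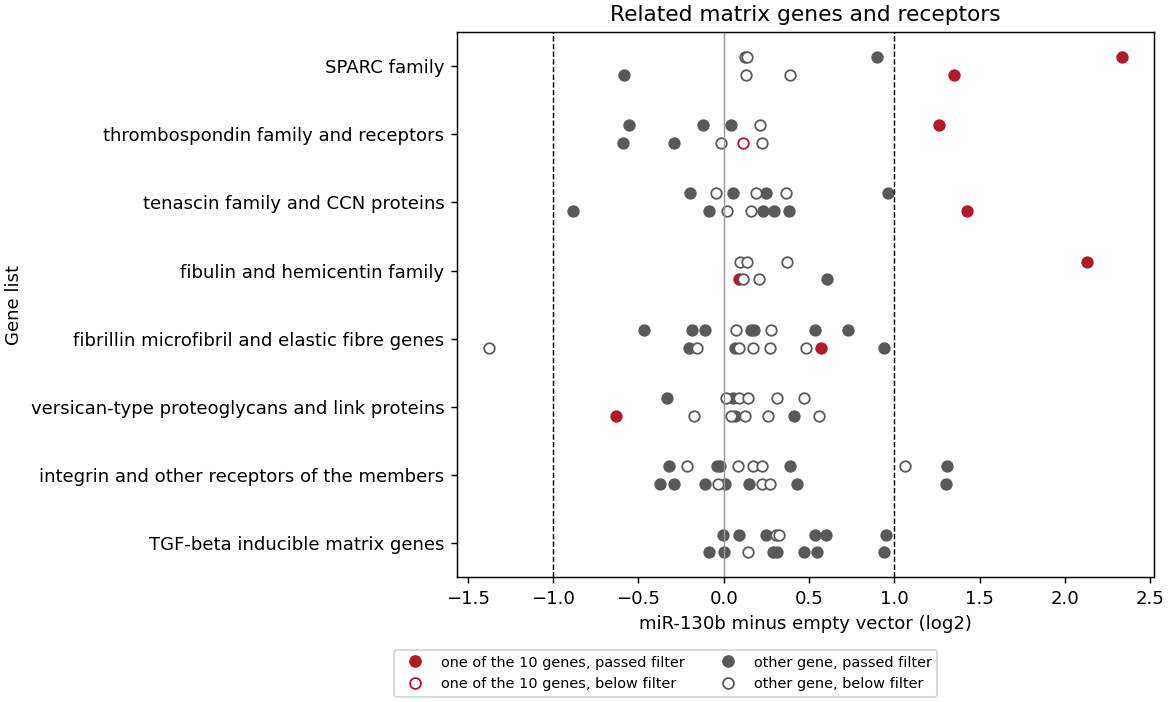
Difference of each measured gene (horizontal axis, log2, miR-130b minus empty vector) in 8 lists of related genes. Red marks those of the 10 genes that are on a list (FN1 is on none) and grey marks others, filled where the gene passed the filter. Dashed lines mark 2-fold and points are offset vertically for legibility. Beyond 2-fold to the right lie 5 red points, the integrin chains ITGB3 and ITGB8 and, below the filter, ITGA4. Beyond 2-fold to the left lies LOX, below the filter.

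Fibroblasts make most of these 10 proteins in tissue, so fibroblast markers were read beside them. Of 13 markers 12 had a difference above 0, with a median of 0.32, while 58.6% of all named genes were above 0. Of the 13, 11 were at or under the highest olfactory receptor gene on the empty-vector array and 10 on the miR-130b array. The summed linear signal of the list was 2532 and 3046. The defining transcripts DCN (4.46 and 4.55), POSTN (4.70 and 4.89) and PDGFRA (6.12 and 6.48) stayed at that low level on both arrays, and COL1A1 read 8.74 and 9.05. FAP, a fibroblast activation protease, read 5.26 and 6.97. The 8 endothelial markers had 7 at or under that level on each array, with a summed linear signal of 906 and 1067. All 8 of them had a difference above 0, with a median of 0.21, so such a direction was not particular to the fibroblast list. The 7 measured leukocyte markers summed to 3356 and 2235, and 5 of the 7 had a difference above 0. The ones past the filter were CD68, a lysosomal protein that epithelial lines can also make (11.14 and 9.96), and CD14 (8.89 and 9.53). CD68 was thus more than 2-fold lower (-1.18), 1 of the 2 that passed, against 1.6% of all kept genes. ITGAM, below the filter, was the other lower one (8.56 and 7.90), the latter value under the highest olfactory receptor gene. Of the 12 epithelial markers, 5 were at or under the highest olfactory receptor gene on the empty-vector array and 6 on the miR-130b array. EPCAM, NKX2-1, NAPSA and SFTPB were under that level on both arrays. The summed linear signal of the epithelial list was 29931 and 26899. From this list, KRT8 (13.38 and 13.48) and KRT18 (13.22 and 13.19) were high on both arrays. Of the 6 epithelial markers that passed the filter, 3 had a difference above 0 and 3 below, with a median of 0.036. KRT19 (9.85 and 10.22) and MUC1 (9.21 and 9.63) were among the higher ones. By 2-fold or more 2 of the 6 were lower, against 1.6% of all kept genes. These were CDH1, E-cadherin, at 12.61 and 11.49, and ABCA3, a lipid transporter of alveolar cells, at 9.93 and 8.89. Below the filter, the alveolar marker LAMP3 read 8.35 and 6.81, and the surfactant gene SFTPC read 7.38 and 7.33, under the highest olfactory receptor gene on both arrays. Whether any of these marker shifts bears on the 10 genes was not tested.

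The genes whose pair of values lay nearest to those of a member were found by Euclidean distance over the 2 log2 values, a likeness that also depends on probe sensitivity. Nearest to SPARC were FAM111B (8.33 and 10.77, distance 0.073), NR4A2 (distance 0.35) and HMCN1 (distance 0.35). Nearest to TNC were SYT13 (8.81 and 10.12, distance 0.087), PCGF3 (distance 0.16) and IRX3 (distance 0.17). Nearest to THBS1 were ETS2 (11.73 and 12.75, distance 0.28), CENPF (distance 0.32) and SLC5A3 (distance 0.35). HMCN1 was the 1 of these 9 that belongs to the matrix glycoproteins followed here.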

How the data were processed

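The 2 samples were profiled, 1 array each, and both were grouped by the transfection the labels give. The deposited table holds log2 expression values for 33297 probe sets on each array, from 1.95 to 14.17 with medians of 7.77 in both. The log base was inferred from that range. The sources used here do not name the background correction, normalization or software. The labels' protocols state whole-transcript cDNA and biotin labelling, and an extraction from excised tissue that does not match a cell line. No detection calls were used.

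Probe sets with 1 gene symbol in the platform annotation (19460, against 1754 with several and 12083 unnamed here) were averaged per gene, and symbols were updated through RefSeq for 19429 of them. The named genes were the 10 members, MIR130B, up to 2 increases and 2 decreases per related list among genes past the filter, and the 3 nearest genes of SPARC, TNC and THBS1. Some further relatives, receptors and markers were added after their values were seen. The members and lists were chosen with earlier results of these data known. With 1 array per group only differences were computed, at a threshold of 2-fold, and the number of arrays limits the precision. Tried as alternatives were a filter at the 75th percentile or none, centring, quantile normalization, cyclic loess, the brightest probe set, a 1.5-fold threshold and the mean. Python 3.11.15, pandas 2.3.3, R 4.3.3 and limma 3.58.1 were used.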

Additional observations from a re-analysis of the deposited data

How the results depend on the processing

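Under centring, quantile normalization and cyclic loess, each of the 10 genes kept its sign and its side of 2-fold. Choosing the brightest probe set cannot change them, since each has 1. Across these scalings the difference of SPARC ran from 2.28 to 2.36, of THBS1 from 1.21 to 1.28, of FBLN1 from 0.038 to 0.12 and of VCAN from -0.69 to -0.61. The filter matters more. At the 75th percentile 1 gene of the 10, THBS1, was left at least 2-fold higher, because SPARC, HMCN1, TNC and SPOCK1 drop out, and the median of those left was 0.048. Without a filter the median was 0.92, and the mean of the 9 kept genes was 0.89, against a median of 1.26. List medians and counts in this section include those of the 10 genes that are on the list, unlike the medians of further genes above. With the main filter such medians were 1.12 for the SPARC family and -0.20 for thrombospondins and receptors. They were 0.61 for fibulins and 0.16 for microfibril genes. Without a filter the medians were 0.26 for the SPARC family, 0.013 for thrombospondins and receptors and 0.17 for fibulins, and 1 microfibril gene (LOX) was at least 2-fold lower. At the 75th percentile the SPARC family held SMOC1 alone (-0.58), the microfibril median was 0.35, the numbers at least 2-fold higher were 0 in the SPARC, tenascin and fibulin lists and 1 among receptors, and 0.869% of genes were higher. At 1.5-fold 1 of the 10 genes (VCAN) was lower, and it was also the 1 lower gene of the proteoglycan list. In the tenascin list 2 genes (TNC and NID2) were higher and 1 (CCN3) lower, and in the thrombospondin list 1 (CALR) was lower. At that threshold 2 fibulin-list genes (HMCN1 and EFEMP1), 2 microfibril and 3 TGF-beta-inducible genes were higher, with LTBP2 counted in both of the latter lists. Of all kept genes 5.04% were higher and 5.87% lower. Of 235 recomputed values 210 kept within the spread between probe sets or within 1.5 times the count, and 24 moved by more. The remaining 1 was the SPARC family median, which went from 1.12 to -0.58 at the 75th percentile. It was set apart because it changed sign from a value of at least 1. Smaller medians changed sign too, such as that of thrombospondins and receptors, from -0.20 to 0.013 without a filter. The 235 include values that could not change, such as those of the 10 genes with the brightest probe set. No paired analysis was possible because each group has 1 array.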

Other observations

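The nearest measured protein-coding genes on either side of each of the 10 genes, by their order in GRCh38.p14, were read as well, and this was done after the values of the 10 were known. Of the 10 neighbours of the 5 genes that were at least 2-fold higher, 0 were higher by 2-fold or more (1.06% of all named genes) and 2 were lower (1.37%), and 3 passed the filter. The lower ones, RASGRP1 and PRG4, failed the filter and ended under the highest olfactory receptor gene. Beside SPARC, FAT2, an atypical cadherin, was at 6.30 and 6.64, within the range of the olfactory receptor genes, and ATOX1, a copper chaperone, differed by 0.37. Beside THBS1, RASGRP1, a Ras activator, read 8.43 (empty vector) and 7.09 (miR-130b). Beside HMCN1, PRG4, the joint lubricant lubricin, read 8.41 and 7.40, while IVNS1ABP differed by -0.026. Beside TNC, PAPPA, a metalloproteinase that frees insulin-like growth factors, read 12.69 and 12.81. Beside FBLN1, which differed by 0.091, RIBC2 read 7.72 and 8.92, the former under the highest olfactory receptor gene. These are 1 array per group, and no test was run on them.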
